A study of Macaca radiata with 4 samples.

Results

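Adenosine is a purine nucleoside that acts on cells as a local signal. Outside the cell it is made from AMP by the surface enzyme NT5E (CD73). It is removed by ADA, which deaminates it to inosine, or by ADK, which phosphorylates it back to AMP inside the cell. It signals through G protein-coupled receptors, of which ADORA1 couples to inhibition of adenylyl cyclase and ADORA2B to its stimulation. Luteal steroidogenesis depends on LH and cAMP, the second messenger that these receptors also act on.

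The genes described are the enzymes ADA, ADK and NT5E and the receptors ADORA1, ADORA2A, ADORA2B and ADORA3. All probe sets with one of these as their only gene symbol were taken, which gave 10 of the 52865 probe sets on the array. They covered 5 of the 7 genes, out of 14132 genes with a probe set of their own. ADORA2A and ADORA3 were not matched to a probe set and were not analysed here. The genes were chosen by their signals on these arrays, rhLH against each PBS array, so their differences are given as a description, with no test. On the arrays from animals given rhLH, the ADORA1 probe set and 2 of the 3 ADA probe sets had signals at least 2-fold above those on either PBS array. Of all probe sets kept by a filter on dim signals, 0.344% did so. ADORA1 passed that filter through its rhLH signals and met the 2-fold margin narrowly. Both ADK probe sets were lower without overlap, as 17.7% of kept probe sets were. On the ADK probe set MmugDNA.26017.1.S1_at the difference was smaller than the gap between the PBS arrays. The NT5E and ADORA2B probe sets overlapped between the groups.

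The samples were luteal tissue from female Macaca radiata (bonnet monkey). Corpora lutea are the glands that form from the ovulated follicle and make progesterone. All animals, controls included, received CET, which per the labels inhibits endogenous LH secretion, on luteal phase day 7 at a dose of 150 µg/kg. At 24 h they were given either 0.5 ml of PBS or 20 IU/kg of rhLH intravenously, and the tissue was collected 8 h later. Replicates 1 and 2 are the PBS arrays and replicates 3 and 4 the rhLH arrays, with 2 animals per group in the labels, which do not tie an array to an animal. No untreated corpus luteum is among the groups, so each value below compares luteal tissue with and without LH replacement after CET.

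PBS replicate 1 stood apart from the other 3 arrays. Its Pearson correlation with them over the 31659 probe sets kept by the filter on dim signals was 0.752 to 0.78, against 0.94 to 0.947 among the others. The 3′ to 5′ signal ratio of the actin control was 11.2 there and between 1.49 and 1.59 elsewhere, and that of the GAPDH control 3.23 against 1.62 to 2.28. Differences of the adenosine genes are therefore also given from each PBS array alone, as are those of many of the other genes named. Of 12 luteal cell markers 7 were kept, among them STAR, the mitochondrial cholesterol carrier, with signals between 24283 (PBS replicate 1) and 54566 (PBS replicate 2), and the dimmer NR5A1, at 175 to 602. The summed signal of the 7 was 83078 for PBS replicate 1 and between 172050 and 185405 for the rest. Of the 7, 3 lay above both PBS arrays, against 16.3% of the 10998 genes counted by their brightest kept probe set. Among the 3 was the aromatase gene CYP19A1, with 1884 and 7431 with PBS and 12670 and 20847 with rhLH. In whole tissue, fewer cells of a type and less RNA per cell cannot be told apart.

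Of the 10 probe sets, 9 passed the filter, which kept probe sets with a mean log2 above that of a signal of 90.7. Of these 9, 3 had both rhLH arrays above both PBS arrays, 2 had both below, and 4 overlapped. Over all kept probe sets the shares were 14.4% above and 17.7% below. The same 3 had every rhLH array at least 2-fold above every PBS array, as 0.344% of kept probe sets did, and 0 of the 9 were lower by that rule, as 0.49% were. Because the choice of genes used these values, the counts describe the set and nothing is read from them. With arrays centred on their medians, the median difference of all kept probe sets moved by 0.23 on the log2 scale, and 66.4% of probe sets without overlap lay above, against 44.9% in the main setting. The 5 member probe sets without overlap lay on the same side with that scaling and with quantile normalization.

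**Figure D1:**
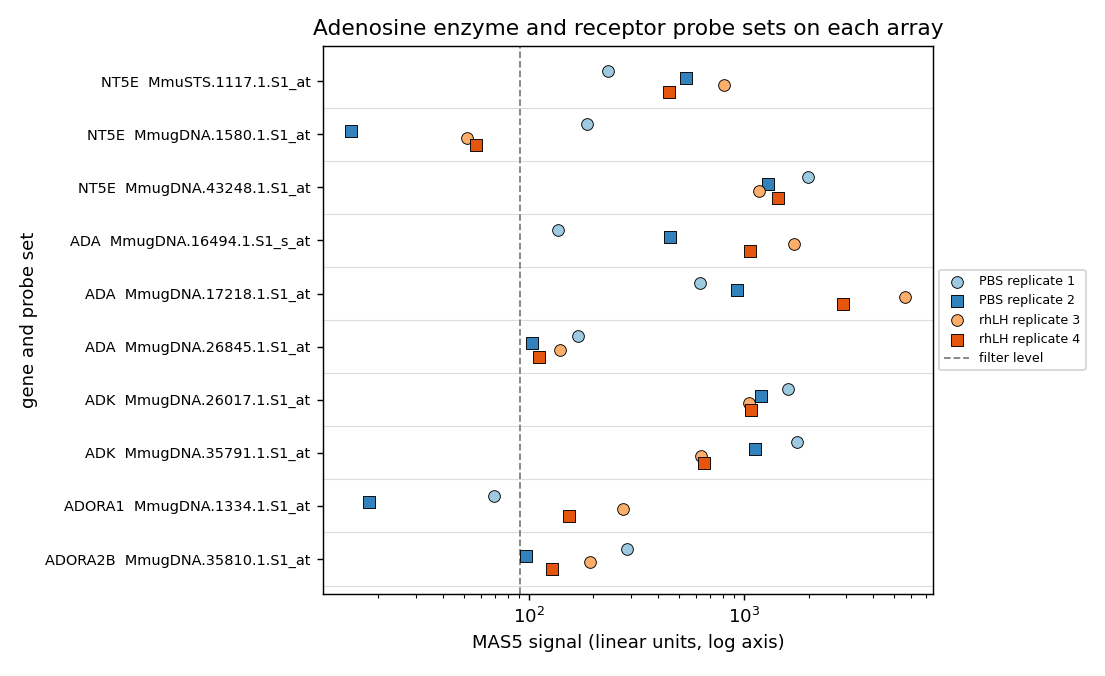
MAS5 signal (linear units on a log axis) of each of the 10 probe sets on each of the 4 arrays, 1 point per array, with the filter level of 90.7 as a dashed line. The rhLH points of ADORA1 and of 2 ADA probe sets lie to the right of both PBS points, those of both ADK probe sets lie to the left, and the others overlap.

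NT5E, which makes adenosine from extracellular AMP, was covered by 3 probe sets that differed in direction. Probe set MmugDNA.43248.1.S1_at gave 1989 and 1299.9 with PBS and 1175 and 1444 with rhLH. The rhLH values lay on either side of PBS replicate 2, and the difference of means on the log2 scale was −0.30. It was −0.60 when only PBS replicate 1 was the control and 0.00 when only PBS replicate 2 was. Probe set MmuSTS.1117.1.S1_at gave 233 and 538 with PBS and 811 and 447 with rhLH. Its difference of 0.74 was smaller than the gap of 1.15 between the PBS arrays. It was 1.31 from PBS replicate 1 and 0.16 from PBS replicate 2. The dimmest, MmugDNA.1580.1.S1_at, was the probe set that did not pass the filter.

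On that dim NT5E probe set the signals were 186 and 14.9 with PBS and 51.6 and 56.6 with rhLH, so both rhLH arrays lay between the PBS arrays. The PBS arrays differed 6.53-fold there and the rhLH arrays 1.07-fold. The log2 difference of −0.17 joined −1.53 from PBS replicate 1 and 1.18 from PBS replicate 2. NT5E is also a surface protein of endothelial cells. The summed signal of the 11 kept of 12 endothelial markers was 23363 and 27609 with PBS and 25577 and 28761 with rhLH, which overlapped, and the lowest single value was that of KDR on PBS replicate 1 (34.8).

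ADA had the largest signal difference among the enzymes. Its brightest probe set, MmugDNA.17218.1.S1_at, gave 625 and 929.9 with PBS and 5612 and 2893 with rhLH. The lower rhLH value was above the higher PBS value by 1.62 on the log2 scale. Mean signals were 777 ± 216 (SD, n = 2) with PBS and 4252 ± 1923 (SD, n = 2) with rhLH, a difference of 2.38 on the log2 scale. Measured from PBS replicate 1 it was 2.66, and from PBS replicate 2, without the array that stood apart, 2.10. The arrays within a group differed 1.48-fold with PBS and 1.93-fold with rhLH. The difference between groups ranked at position 34 from the top of 31659, and those of the other ADA probe sets at 39 and 16635. ADA was chosen on this contrast, so the ranks are a description only.

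A further ADA probe set, MmugDNA.16494.1.S1_s_at, followed the same direction at a lower signal. It had 137 and 456 with PBS and 1716 and 1067 with rhLH, a 5.09-fold difference (log2 2.35). The PBS arrays were 3.09-fold apart on it, and the log2 difference was 3.16 from PBS replicate 1 but 1.54 from PBS replicate 2. The suffix of its name marks, in the array maker's scheme, probes that can match more than 1 transcript. The remaining one, MmugDNA.26845.1.S1_at, had 169.6 and 103 with PBS and 139.6 and 112 with rhLH. Both of those rhLH values lay within the PBS range, and the difference was −0.07. The ADA probe sets therefore did not all show the same pattern, and which parts of the transcript they match was not examined here. The mean difference over all 3 was 1.55.

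ADA protein is also abundant in lymphocytes. Of 13 lymphocyte markers 5 were kept, and their summed signal was 5421 and 11597 with PBS and 16509 and 16705 with rhLH. GZMB, a cytotoxic granule protease, made up most of it, at 4481 and 10891 with PBS and 15764 and 16051 with rhLH. The other 4 overlapped between the groups: CD4 stood at 169 and 314 with PBS and 219 and 269 with rhLH, and the T cell kinase gene ZAP70 at 592 and 163 against 315 and 214. CD8A and the B cell gene MS4A1 had signals of 50.7 to 133 and of 77.6 to 121 over the 4 arrays. No kept marker was at 0, the CD3 chain genes and CD2 were not among the kept genes, and the part of lymphocytes in the ADA signal was not tested.

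ADK, which turns adenosine back into AMP, had 2 probe sets, both lower with rhLH. On MmugDNA.35791.1.S1_at the signals were 1763 and 1126 with PBS and 634 and 652 with rhLH. The higher rhLH value lay below the lower PBS value by 0.77 on the log2 scale. Mean signals were 1444 ± 451 (SD, n = 2) with PBS and 643 ± 12.9 (SD, n = 2) with rhLH, a 2.16-fold difference (log2 −1.11). With PBS replicate 1 as the only control it was −1.43, and with PBS replicate 2 it was −0.79. Here the rhLH arrays differed 1.03-fold and the PBS arrays 1.56-fold.

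The other ADK probe set, MmugDNA.26017.1.S1_at, differed less. It had 1605 and 1198 with PBS and 1053 and 1075 with rhLH, so the groups did not overlap, but the closest arrays were only 0.16 apart on the log2 scale. The difference was −0.38, smaller than the gap of 0.42 between the PBS arrays. It was −0.59 from PBS replicate 1 and −0.17 from PBS replicate 2. ADK and ADA, the enzymes that remove adenosine by separate routes, thus had differences of opposite sign on their brighter probe sets.

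**Figure D2:**
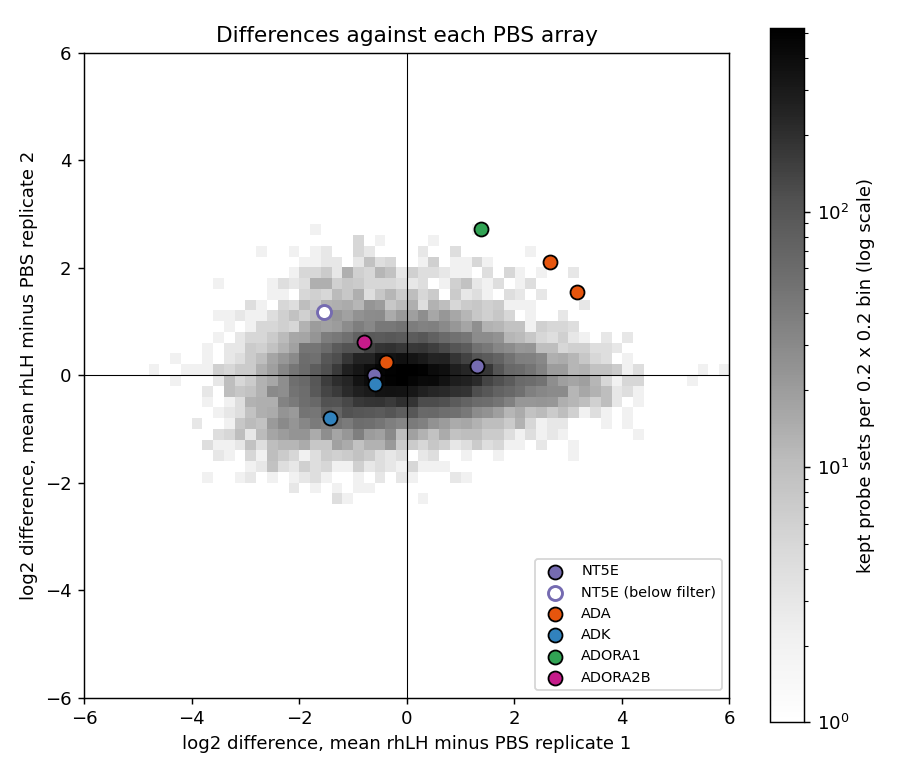
Log2 difference of the mean of the rhLH arrays from PBS replicate 1 (x axis) and from PBS replicate 2 (y axis) for the 10 probe sets (coloured, the one below the filter as an open circle), over all 31659 kept probe sets (grey, counts per bin on a log scale). ADORA1 and 2 ADA probe sets lie in the upper right, at 1.39 and 2.71 for ADORA1, and one ADK probe set lies lower left, at −1.43 and −0.79.

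ADORA1, the receptor coupled to inhibitory G proteins, was dim on the PBS arrays. Its probe set, MmugDNA.1334.1.S1_at, had signals of 69.1 and 18.1 with PBS and 274 and 154 with rhLH. Both PBS values lay below 90.7, and the probe set passed the filter through its rhLH signals. The difference was 2.05 on the log2 scale, 1.39 from PBS replicate 1 and 2.71 from PBS replicate 2. The closest arrays were 1.00 apart, at the edge of the 2-fold rule, and with a pseudocount of 64 the difference was 1.38 and the rule was no longer met. For a probe set this dim the fold depends on the pseudocount, and detection calls were not used here.

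ADORA2B, which raises cAMP, had signals of 285 and 96.9 with PBS and 193 and 128 with rhLH on its probe set, MmugDNA.35810.1.S1_at. Both rhLH arrays lay between the PBS arrays. The pooled difference of −0.09 joined values of opposite sign, −0.80 from PBS replicate 1 and 0.62 from PBS replicate 2. In all, 4 of the 10 probe sets had opposite signs against the PBS arrays (1 each of ADA and ADORA2B and 2 of NT5E, one of these by the value that rounds to 0.00). For 6 of 10 the gap between the PBS arrays was larger than the difference between the groups.

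Genes whose profile over the 4 arrays was nearest to that of the brightest ADA probe set were ranked among 10997 genes. The measure was the root mean square distance between log2 profiles, each centred on its own mean. The nearest was LOC714008, at a distance of 0.245, with signals of 725 and 1658 with PBS and 9199.8 and 3805 with rhLH. CYP11B1, a steroid 11β-hydroxylase whose close paralogue CYP11B2 may share its probes, was second at 0.252, with 600 and 722 against 3901 and 1715. The pancreatic lipase gene PNLIP followed at 0.304, with 380 and 599.6 against 3631 and 1129. CITED1, a transcriptional co-regulator, stood at 0.325 with 40.7 and 108 against 466 and 394, and the small GTPase gene DIRAS3 at 0.326 with 250.4 and 358 against 2175 and 677.

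For comparison, the median distance over all genes was 1.28, and the other ADA probe sets lay at 0.389 and 1.32 from the brightest. The 5 genes were chosen for nearness to that ADA probe set. Like it, they had their highest signal on rhLH replicate 3 and their lowest on PBS replicate 1. With 4 arrays this likeness is a description only. The further kept probe sets of LOC714008 differed by 2.62, 2.61 and 1.94 between the groups, and that of CYP11B1 by 1.17.

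**Figure D3:**
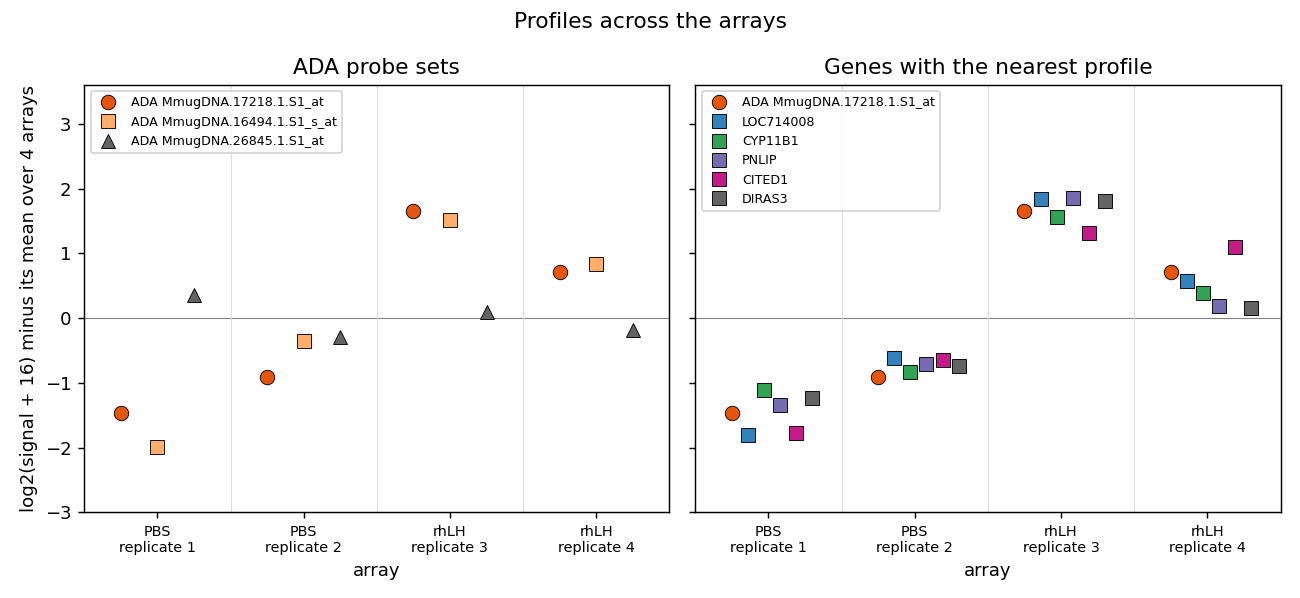
log2(signal + 16) on each array minus its mean over the 4 arrays (y axis), by array (x axis), 1 point per probe set and array, for the 3 ADA probe sets (left) and for the brightest ADA probe set with the 5 genes of nearest profile (right). The brightest ADA probe set runs from −1.47 on PBS replicate 1 to 1.66 on rhLH replicate 3, while MmugDNA.26845.1.S1_at stays between −0.29 and 0.36.

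The wider pathway was covered by 57 symbols, older aliases included, of purine enzymes, ectonucleotidases and nucleoside transporters, of which 35 genes were kept. By limma's test across all 31659 kept probe sets, 0 of the 35 passed an adjusted p of 0.05 in either direction, and 0 had an unadjusted p under 0.05. The test called 0.0% of all probe sets, and 641 (2.02%) had an unadjusted p under 0.05. The signals of 6 genes lay above and of 3 below both PBS arrays, 17.1% and 8.57% of the 35, against 16.3% and 16.1% of the 10998 genes counted in this way. None of the 35 met the 2-fold rule in either direction, which 0.318% of all genes met higher and 0.336% lower. The median difference of the list was 0.05, against 0.02 over all genes, and 19 of the 35 had opposite signs against the PBS arrays.

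**Figure D4:**
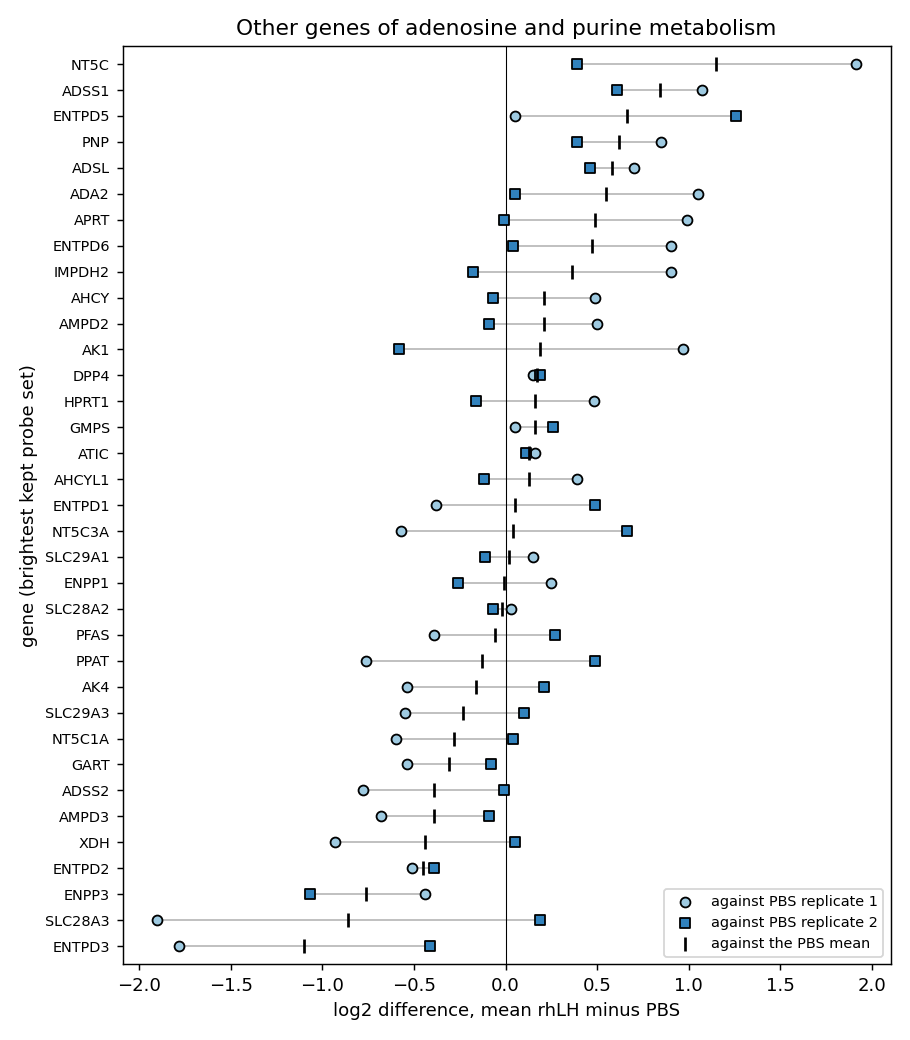
Log2 difference of the mean of the rhLH arrays from PBS replicate 1 (circles), PBS replicate 2 (squares) and the PBS mean (ticks) for the 35 kept genes of adenosine and purine metabolism other than those above, 1 row per gene. NT5C is the highest at 1.15 and ENTPD3, kept through its signal on PBS replicate 1, the lowest at −1.10. For 19 genes the circle and the square lie on opposite sides of 0.

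Among the genes above both PBS arrays, NT5C, a cytosolic nucleotidase, had signals of 135 and 418 with PBS and 545 and 562 with rhLH (log2 1.15; 1.91 and 0.39 against the PBS arrays). PNP, which splits the inosine that ADA makes, stood at 1198 and 1661 with PBS and 2303 and 2053 with rhLH (log2 0.62; 0.85 and 0.39). On the route from IMP to AMP, ADSS1 had 86.8 and 126 against 244 and 163 (log2 0.84; 1.07 and 0.61) and ADSL 980.4 and 1159 against 1713 and 1493 (log2 0.58; 0.70 and 0.46). On these probe sets both ADSS1 and ADSL were higher by 0.46 or more against either PBS array. The guanine nucleotide enzyme GMPS (log2 0.16) and DPP4, the surface peptidase that binds ADA protein (log2 0.17), also lay above. The DPP4 margin was slight, with 651 and 794 against 648 and 629. The further ADSL probe set also lay above, at 0.41, but only slightly above PBS replicate 2, with 815 and 1244 against 1339 and 1349. ADSS2, which shares its step with ADSS1, was brighter and overlapped between the groups. It had 2333 and 1365 with PBS and 1312 and 1402 with rhLH (log2 −0.39; −0.78 and −0.01). Its further probe sets differed by 0.79, −0.43, −0.06, −0.70 and 0.27, so the route as a whole was not higher. By limma the adjusted p was 0.919 for NT5C, PNP, ADSS1 and ADSL and 0.936 for GMPS and DPP4.

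The 3 genes below both PBS arrays, a smaller share than among all genes, were ENPP3, ENTPD3 and ENTPD2, each a surface enzyme that breaks down extracellular nucleotides. ENPP3 had signals of 1019.5 and 1579 with PBS and 865 and 642 with rhLH (log2 −0.76; −0.44 and −1.07 from the PBS arrays), and its further probe set differed by −0.86. ENTPD3 had 257 and 89.7 against 44.4 and 88.3 (log2 −1.10; −1.78 and −0.41), where the closest arrays, at 89.7 and 88.3, were almost level. ENTPD2 had 164 and 148 against 89.9 and 133 (log2 −0.45; −0.51 and −0.39). All 3 had an adjusted p of 0.919 by limma. Other enzymes of that kind did not separate the groups on their brightest probe set. ENPP1 had 20829.6 and 29795 with PBS and 19858 and 30988 with rhLH (log2 −0.01). ENTPD1 (CD39), which supplies NT5E with AMP, overlapped between the groups there, at 1829 and 994 with PBS and 1329 and 1472 with rhLH. Its further probe sets differed by −0.18 and 0.61. The latter lay above both PBS arrays, with 450.2 and 382 with PBS and 657 and 631 with rhLH.

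Other genes that act on adenosine or AMP, or carry adenosine, did not separate the groups. ADA2, the secreted deaminase made by monocytes and macrophages, had 255 and 527 with PBS and 848 and 348 with rhLH. All 10 kept of 12 macrophage markers overlapped as well, with a summed signal of 11472 and 40693 with PBS and 27607 and 20007 with rhLH. AHCY, which releases adenosine from S-adenosylhomocysteine, had a difference of 0.21 (0.49 from PBS replicate 1, −0.07 from the other). The AMP deaminases AMPD2 (0.50 and −0.09) and AMPD3 (−0.68 and −0.09) and the nucleotidases NT5C3A (−0.57 and 0.66) and NT5C1A (−0.60 and 0.04) are given in the same order.

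The equilibrative transporters SLC29A1 (0.15 and −0.11) and SLC29A3 (−0.55 and 0.10) and the concentrative transporter SLC28A2 (0.03 and −0.07) had values of opposite sign from the PBS arrays. SLC28A3 had 487 and 103 with PBS and 123 and 115 with rhLH. Its pooled difference of −0.86 rested on PBS replicate 1, since it was −1.90 from that array and 0.19 from the other. AMPD1, SLC28A1, SLC29A2, SLC29A4, NT5C2 and NT5C1B had no kept probe set under their symbols and are not analysed here.

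Of 25 genes of adenosine receptor coupling, covering G proteins and the cAMP pathway, 16 were kept, and 0 passed the limma test. Of the 16, 2 (12.5%) lay above and 4 (25%) below both PBS arrays, against 16.3% and 16.1% of all genes. The median difference was −0.15. CREM, a cAMP-responsive transcription factor, had 2000.1 and 2650.2 with PBS and 4088 and 2925 with rhLH (log2 0.58), and of its 4 further probe sets 3 were positive and 1 negative (−0.22). The adenylyl cyclase genes ADCY4 (0.91 and 0.10 from the PBS arrays) and ADCY9 (−0.73 and −0.38) differed in sign, while ADCY3 stood at −0.69 and −0.12 and ADCY6 at 0.04 and −0.02. Inhibitory G protein subunits that ADORA1 uses overlapped between the groups, GNAI1 at −0.41 and 0.13 and GNAI3 at −0.17 and 0.26.

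Receptors for ATP and related nucleotides, the compounds upstream of adenosine, were kept for 5 of 17 symbols, with 1 above and 2 below both PBS arrays, as 16.3% and 16.1% of all genes did. P2RX1, an ATP-gated channel, had 187 and 184 with PBS and 333 and 365 with rhLH (log2 0.86; 0.85 and 0.87), with both arrays of each group close together. P2RX6 had 483 and 272 against 248 and 119 (log2 −1.01; −1.41 and −0.61 from the PBS arrays), and P2RY4 149 and 194 against 46.0 and 114 (log2 −1.06; −0.88 and −1.23). By limma all 3 had an adjusted p of 0.919, and 0 of the 5 passed.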

How the data were processed

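RNA from corpora lutea was measured on 4 single-colour rhesus macaque arrays. The deposited values are probe set intensities on a linear scale, made by the authors with MAS5 per the submitters' processing notes. The sources used here do not state a scaling target or detection calls. Groups came from the sample titles. Signals were used as log2(signal + 16) with no further normalization. Of 52865 probe sets, 99 controls were set aside, and those with a mean log2 above the 40th percentile (a signal of 90.7) were kept, 31659 in all. Symbols came from the platform annotation: 24956 probe sets had 1 symbol, 361 several and 27449 none. For the lists, a gene was its brightest kept probe set. Differences are of mean log2 values, and SDs are over 2 arrays, whose number limits the precision. Mismatches between the array's rhesus probes and bonnet monkey transcripts were not examined.

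The test was limma's, version 3.58.1 under R 4.3.3 (lmFit, then eBayes with trend, two-sided), adjusted by Benjamini-Hochberg over all kept probe sets. It was checked on simulated data with the same spread on every array, which does not cover an array that stands apart as PBS replicate 1 did. Nothing says which array came from which animal, so p-values measure the spread between these arrays, which may be technical. With 2 arrays against 2 an exact two-sided permutation test cannot go below 0.333. The 2-fold rule asks that every rhLH array differ at least 2-fold, in 1 direction, from every PBS array. The genes and the 12 lists (3 of pathways, 9 of cell type markers) were chosen with earlier results of these data known.

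Named were all probe sets of the chosen genes, pathway genes whose groups did not overlap (up to 6 a direction for purine genes, 2 for the other lists), genes acting on adenosine or AMP, and the 5 genes nearest to ADA. ADCY6, ADSS2, the GNAI genes and single cell type markers were named after their values were seen. Alternatives covered quantile normalization, median centring, pseudocounts of 1 and 64, no filter, a filter at the 70th percentile, eBayes without a trend, array weights, and leaving out each array. Of the marker lists not described, the median differences were −0.19 for pericytes and smooth muscle, −0.02 for fibroblasts, 0.15 for neutrophils and mast cells, −0.04 for red cells and platelets and −0.52 for theca and stroma. Within them TAGLN (log2 1.27) met the 2-fold rule higher and TCF21 (log2 −1.83) lower, as 0.318% and 0.336% of all genes did. The rhLH signals of TCF21, 47.6 and 34.5, lay below the filter level. Of the 5 theca and stroma markers, 3 lay below both PBS arrays, against 16.1% of all genes.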

Additional observations from a re-analysis of the deposited data

How the results depend on the processing

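Of the 10 probe sets of the adenosine genes, 6 kept the sign of their difference under every alternative run and 4 took the opposite sign under some (MmugDNA.26845.1.S1_at of ADA, MmugDNA.1580.1.S1_at and MmugDNA.43248.1.S1_at of NT5E, and ADORA2B). The brightest ADA probe set ran from 1.90 to 2.85 when 1 array was left out, and the mean over all 3 ADA probe sets was 1.55. The purine list's median of 0.05 was 0.12 with quantile normalization, 0.28 with arrays centred on their medians, and −0.02 to 0.12 when 1 array was left out. The limma count of 0 stayed 0 under all alternatives except without PBS replicate 2, where PBS replicate 1 is the sole control (8027 calls), so leaving out 1 array gave 0 to 8027.

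Of all kept probe sets, 109 met the 2-fold rule higher and 155 lower. The higher count was 175 with centred arrays, 65 with a pseudocount of 64, 378 with no filter, 42 with the filter at the 70th percentile and 189 to 3924 without 1 array. The lower count was 58 with a pseudocount of 64, 798 with no filter, 19 at the 70th percentile and 312 to 4631 without 1 array. Both rhLH arrays lay above both PBS arrays for 4573 probe sets and below for 5608. With centred arrays these were 7068 and 3575, with no filter 7023 and 10311, at the 70th percentile 2792 and 2272, and without 1 array 7384 to 12105 and 9031 to 15482. More or fewer probe sets enter under the filters, and leaving out an array relaxes the rule. The cause of the other moves was not tested. No paired analysis was possible because the groups share no replicate number.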
